A study of Mus musculus with 2 samples.

Results

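The genes described here are 46 genes of the cell cycle and of DNA replication, out of 21829 mouse genes with a protein-coding transcript start in GENCODE M21. They were listed by name and not by a rule on their measured values, though earlier results of these data were known. They fall into 10 roles, from the licensing of replication origins to the inhibitors of cyclin-dependent kinases (CDKs). All 46 were found in the annotation. For each, the promoter was the 500 bp on either side of any coding start, and the locus was the gene body with 10 kb on each side.

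Open chromatin was mapped with DNase-seq, in which DNase I cuts accessible DNA in isolated nuclei and the cut ends are sequenced. There was a single group, gastrocnemius (calf muscle) tissue of male B6CASTF1/J mice at 10 days of age, an F1 hybrid that carries B6 and CAST alleles. It was represented by 2 libraries, biological replicates 1 and 2. In the labels both libraries point to a single donor record, and each sample is described as 3 males, without stating whether tissue was pooled. With a single group no conditions could be compared and no test was run. The values show only the spread between these libraries, which may be technical, and each member is set beside all other coding genes as a description. RNA was not measured, so an open promoter says nothing here of the amount of transcript.

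The cell cycle is driven by cyclins, which activate CDKs. D-type cyclins with Cdk4 or Cdk6 phosphorylate the pocket proteins Rb1, Rbl1 and Rbl2, which releases E2F transcription factors to act on genes for DNA replication, while cyclins A and B with Cdk1 drive mitosis. In resting cells, Rbl1 or Rbl2 with repressive E2Fs and the MuvB core (together the DREAM complex) hold the same promoters silent. The complex acts through E2F sites in genes of the replication phase and through the cell cycle genes homology region (CHR) in mitotic genes. In growing muscle, satellite cells and other mononuclear cells divide, whereas nuclei within myofibres have left the cycle.

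The wider peak sets held 123255 peaks in replicate 1 and 150088 in replicate 2, with median peak values of 0.729 and 0.716. Peak values are a signal scaled to library depth, in which the smallest step was worth 0.00544 in replicate 1 and 0.00587 in replicate 2. Read as 1 tag per step, the members' promoter values rest on 329 (Ccnd2) to 3496 (Ccne1) tags in replicate 1 and on 345 (Cdkn2a) to 3782 (Ccne1) in replicate 2. All 12 markers of skeletal myofibres and all 6 of satellite cells had open promoters in both replicates, with summed values of 43.0 and 75.6 for the first list and 13.4 and 17.7 for the second. Of the markers of other cells, 5 of 6 for fibroblasts (sums 16.4 and 25.8), 1 of 6 for macrophages (0.353 and 2.35) and 1 of 6 for the erythroid lineage (1.15 and 1.07) were open in both. In replicate 2 alone, 4 of the 6 macrophage markers were open, against 1 in replicate 1. The 6 hepatocyte markers, of a tissue not sampled, had no promoter peak. In a mixed tissue such as this, fewer cells with an open site and a less open site in each cell cannot be told apart, and the part of each cell type in the values below was not tested.

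All 46 members had a promoter peak in both replicates, against 66.0% of all coding genes. Openness went with base composition. A CpG ratio (observed over expected CG, in the 1 kb around the start) of 0.6 or more marks CpG-rich promoters, and 97.0% of the 10900 coding genes in that class were open. The class held 41 of the 46 members, or 89.1%, and 73.4% of the open promoters. In the stricter peak set, too, all 46 members had a promoter peak in both replicates, against 61.8% of coding genes. A footprint, a short stretch protected from cutting inside open chromatin, lay in all 46 promoters in both replicates, and in 97.4% of open promoters.

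Promoter values, the highest peak in the promoter, had a median of 6.53 in replicate 1 and 9.17 in replicate 2 over the members, and of 4.64 and 6.44 over the 14406 open promoters. Members above those medians in both replicates numbered 30 of 46 (65.2%), against 45.8% of open promoters and 57.0% of CpG-rich open ones. Within the CpG-rich class the count was 27 of 41 members, or 65.9%. The mean of the replicates had a median of 7.85 over the members, 5.59 over open promoters and 7.22 over CpG-rich open ones. Members ranged from percentile 23.3 among open promoters for Cdkn2a to 98.9 for Ccne1. After Ccne1 came Cdk4 at percentile 94.5, Ccna2 at 93.3, E2f3 at 91.6 and Mcm5 at 90.7, and above Cdkn2a came Ccnd2 at 24.3 and Ccnd1 at 24.9. Cyclin genes were thus found at both ends of the order.

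**Figure D1:**
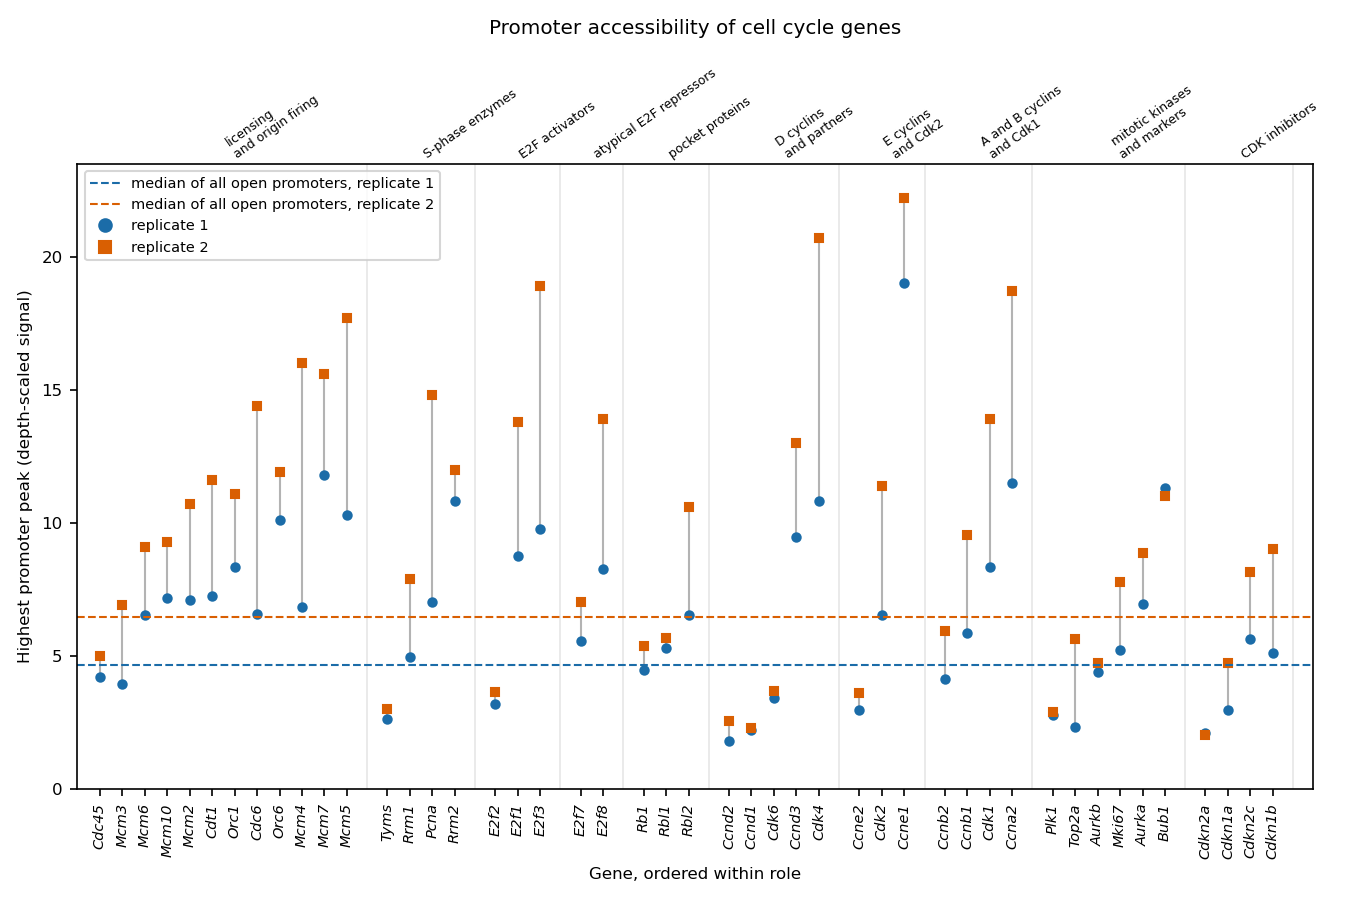
Highest promoter peak (depth-scaled signal, linear axis from 0) of each of the 46 genes, ordered within its role, in replicate 1 (circles) and replicate 2 (squares). Dashed lines are the medians of all open promoters, 4.64 and 6.44, and Ccne1 stands highest at 19.0 and 22.2.

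Origin licensing loads the Mcm2 to Mcm7 helicase ring onto DNA. Of the 12 licensing and origin firing genes, 10 lay above the open-promoter medians in both replicates, with a median of 7.12 in replicate 1 and 11.4 in replicate 2. Mcm5, a helicase subunit (chr8:75109569-75128439, + strand, mm10), had the highest mean at 10.3 in replicate 1 and 17.7 in replicate 2. Mcm7, another subunit, was close to it at 11.8 and 15.6 as its highest peak in each replicate, but those are not the same peak. Its peak at chr5:138171241-138171400 had 11.8 and 13.0, and that at chr5:138171861-138172100, which also lies at a start of Ap4m1, had 11.0 and 15.6. Cdc45, which joins the helicase when origins fire, had the lowest mean at 4.19 and 5.01, below the open-promoter median in both replicates. Mcm3 lay below the median in replicate 1, at 3.94, and above it in replicate 2, at 6.92.

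The other subunits fell between these. Mcm2 had 7.09 and 10.7, Mcm4 had 6.84 and 16.0, and Mcm6 had 6.53 and 9.09. Mcm10, a replication initiation factor that is no part of the ring, had 7.16 and 9.26. The helicase loaders fell in the same range. Cdc6 had 6.56 and 14.4, Cdt1 had 7.25 and 11.6, and the origin recognition subunits Orc1 and Orc6 had 8.35 and 11.1 and 10.1 and 11.9. Relative to its level, the spread between the libraries was widest for Mcm4 and Cdc6.

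The Mcm5 promoter is printed because several words known from cell cycle promoters lie close together in it. A stretch of 250 bases upstream of its coding start (chr8:75109259-75109508, + strand, GRCm38.p6, outside annotated exons) is given with E2F, CRE and NF-Y words in capitals. From the 5′ end the capitals mark an E2F pair that overlaps on opposite strands (TTTCGCGC and, reversed, GCGCCAAA), the cyclic AMP response element TGACGTCA, and 2 CCAAT boxes.
Mcm5 promoter: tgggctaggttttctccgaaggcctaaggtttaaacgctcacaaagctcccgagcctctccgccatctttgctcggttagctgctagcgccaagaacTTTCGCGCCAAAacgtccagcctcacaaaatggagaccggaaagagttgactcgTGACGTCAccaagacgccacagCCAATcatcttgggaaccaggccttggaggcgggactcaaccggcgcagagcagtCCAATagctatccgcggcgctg
Positions count from 0 at the coding start, in the gene's direction. The E2F pair, with first bases at -213 and -209, lay wholly inside a footprint in both replicates, of 31 bases in replicate 1 and 29 in replicate 2. A second footprint, of 30 and 31 bases, covered the CRE at -159. The first CCAAT at -137 only reached into that second footprint.

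S-phase enzymes make nucleotides or slide along the copied strand. Rrm2, the regulated subunit of ribonucleotide reductase, had the highest mean of the 4 at 10.8 in replicate 1 and 12.0 in replicate 2. Pcna, the sliding clamp of DNA polymerases, had 7.03 and 14.8, and Rrm1, the large reductase subunit, had 4.95 and 7.88. Tyms, thymidylate synthase, was the lowest at 2.63 and 3.00, below the medians in both replicates. Its CpG ratio was 0.544, under the limit for the CpG-rich class, which Mcm2 (0.596), Mcm10 (0.598), Ccnd2 (0.525) and Cdk1 (0.526) missed as well.

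Among the E2F activators, E2f3 had the highest promoter at 9.78 and 18.9 and E2f1 followed at 8.76 and 13.8. E2f2 stood apart from both at 3.20 and 3.65. E2f3 has separate starts for a long and a short form, and its second start region, 1672 bp away, was open as well at 3.81 and 6.87. Regions listed in both replicates around its starts joined into 3361 bp, against a median of 1080 bp over members and 901 bp over open promoters. Of the atypical repressors, which act without a dimerization partner, E2f8 had 8.27 and 13.9 and E2f7 had 5.57 and 7.01. E2f3 was the highest and E2f2 the lowest of the 5 E2F genes in both replicates, and only E2f1 and E2f8 changed places between them.

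Of the pocket proteins, Rbl2 lay above the members' median of 7.85 by the mean of the replicates, at 8.58. Rb1 and Rbl1 lay below it, at 4.93 and 5.47. Rbl2, the pocket protein typical of resting cells, had 6.55 and 10.6 and was above the medians in both replicates. Rb1, the retinoblastoma protein, had 4.48 and 5.37, and Rbl1 had 5.28 and 5.65, above the median in replicate 1 and below it in replicate 2. Rb1 and Rbl1 do not differ beyond the spread between the libraries.

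D cyclins and their kinases fell into a high and a low set. Cdk4 (chr10:127063534-127067920, + strand) had 10.8 in replicate 1 and 20.7 in replicate 2, whereas Cdk6, the kinase that can take its place, had 3.42 and 3.66. Ccnd3, the D cyclin known for its rise in differentiating muscle cells, had 9.47 and 13.0, and the other D cyclins were among the lowest members, Ccnd1 at 2.21 and 2.27 and Ccnd2 at 1.79 and 2.55. In both replicates Cdk4 and Ccnd3 lay above, and Cdk6, Ccnd1 and Ccnd2 below, the open-promoter medians. Open regions differed in extent in another order: that of Cdk6 joined into 3785 bp, the widest of the members, and that of Ccnd2 measured 274 bp, the narrowest. Ccnd3 had 3 separate start regions, at 1.46 and 2.11, at 9.47 and 13.0, and at 1.12 and 2.42, of which the middle one was the highest in both replicates.

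Cyclin E starts DNA synthesis with Cdk2. Ccne1 (chr7:38097984-38107534, - strand) had the highest promoter of all 46 members in each replicate, at 19.0 and 22.2, while its paralogue Ccne2 had 2.97 and 3.60. Cdk2 lay between them at 6.53 and 11.4, but its peak also lies within 500 bp of a coding start of Pmel, a melanosome gene, and cannot be assigned to either. Ccne2 was low in height and not in extent, since its open region joined into 2080 bp. The Ccne1 promoter is a cluster of GC boxes, the SP/KLF word GGGCGG, and the footprint nearest its start holds a pair of them; the footprints of both replicates joined are shown with that word in capitals (chr7:38107534-38107557, - strand).
Ccne1 footprint: cctcgGGGCGGggcgcgaGGGCGG
The upstream box of the pair lay wholly inside footprints of 19 bases in replicate 1 and 22 in replicate 2, and the other box was only partly covered in each. Further boxes inside footprints of both replicates lay at -66 and -192. No E2F word of this promoter was overlapped by a footprint in both replicates.

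Cyclins A and B accumulate in dividing cells. Ccna2, cyclin A, had 11.5 in replicate 1 and 18.7 in replicate 2, the highest of its role, and Cdk1, the mitotic kinase, had 8.33 and 13.9. Ccnb1 had 5.86 and 9.53 and Ccnb2 had 4.14 and 5.94, both genes of cyclin B. Ccnb2 was the only gene of the 4 below the median, and it was so in both replicates. Ccna2 has a CRE, inside footprints of 25 and 26 bases at position 99.

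Of the 6 mitotic kinases and markers, Bub1, Aurka and Mki67 lay above the medians in both replicates. Bub1, a spindle checkpoint kinase, had 11.3 in replicate 1 and 11.0 in replicate 2, the highest of the 6 in each. Aurka, a kinase of the spindle poles, had 6.94 and 8.86, but shares its peak with Cstf1, an mRNA cleavage factor. Mki67, whose protein is the standard marker of proliferating cells, had 5.23 and 7.77. Aurkb, a kinase of the chromosomal passenger complex, had 4.40 and 4.71, and Plk1, a kinase of mitotic entry, had 2.76 and 2.87. Top2a, the topoisomerase that untangles chromosomes, differed most between the libraries at 2.34 and 5.63. Plk1 was the lowest of the 6 in replicate 2 and Top2a in replicate 1, so their order differed between the libraries.

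CDK inhibitors hold cells out of the cycle. Cdkn1b, which restrains Cdk2 in resting cells, had 5.11 in replicate 1 and 9.03 in replicate 2, and Cdkn2c, an inhibitor of Cdk4 and Cdk6, had 5.63 and 8.16, and both lay above the medians. Cdkn1a, the inhibitor induced by p53 and by MyoD, had 2.98 and 4.71. Cdkn2a was the lowest of all members by the mean, at 2.10 and 2.02. These values belong to its upstream start, that of the Arf transcript. The downstream start, 12461 bp away, at which the Ink4a transcript begins, had 0.631 and 0.505. Both values of the downstream start were under the median peak of their library.

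Single promoters were not always the gene's own. In 6 members the highest peak lay, in both replicates, within 500 bp of a coding start of a neighbour. Beside Cdk2 with Pmel and Aurka with Cstf1, these were Mcm4 with Prkdc, Orc1 with Prpf38a, Orc6 with Vps35 and Cdc45 with Ufd1. For those genes the promoter value cannot be told apart from that of the neighbour. How many of all open promoters share a peak in this way was not counted. In 3 members (6.52%, against 5.51% of open promoters) the highest peak of replicate 1 and that of replicate 2 were different peaks, so that their ratios compare different sites. Beside Mcm7 these were Orc6, with 10.1 and 11.4 at chr8:85299801-85299960 and 7.16 and 11.9 at chr8:85299461-85299640, and Ccne2, with 2.97 and 2.68 at chr4:11191561-11191800 and 2.56 and 3.60 at chr4:11191141-11191380. The 300 bp searched for words in these 3 was centred between the peaks.

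Words of factors known from cell cycle promoters were searched on both strands, with overlaps allowed, in the 300 bp centred on the highest promoter peak (the mean of the replicates' peak midpoints). The E2F words were TTTCCCGC, TTTGGCGC, TTTGCCGC and TTTCGCGC, and the CHR words were TTTGAA and TTCGAA. The others were NF-Y (CCAAT), SP/KLF (GGGCGG), CRE (TGACGTCA), ETS (CCGGAAG), YY1 (AAGATGGCG) and the palindrome of NRF1. An E2F word was present in 16 of 46 members (34.8%), against 4.50% of open promoters and 5.21% of CpG-rich open ones. CHR words were present in 12 members (26.1%), against 8.98% of open promoters, and CCAAT in 31 (67.4%), against 35.5%. The remaining words stood near their background: GGGCGG in 38 members (82.6%) against 70.9%, or 78.0% of CpG-rich open promoters, the ETS word in 9 (19.6%) against 17.7%, the CRE in 2 (4.35%) against 3.57%, the YY1 word in 1 (2.17%) against 3.56%, and the NRF1 palindrome in 0 against 2.19%. A match is a run of letters and does not show that a factor was bound.

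**Figure D2:**
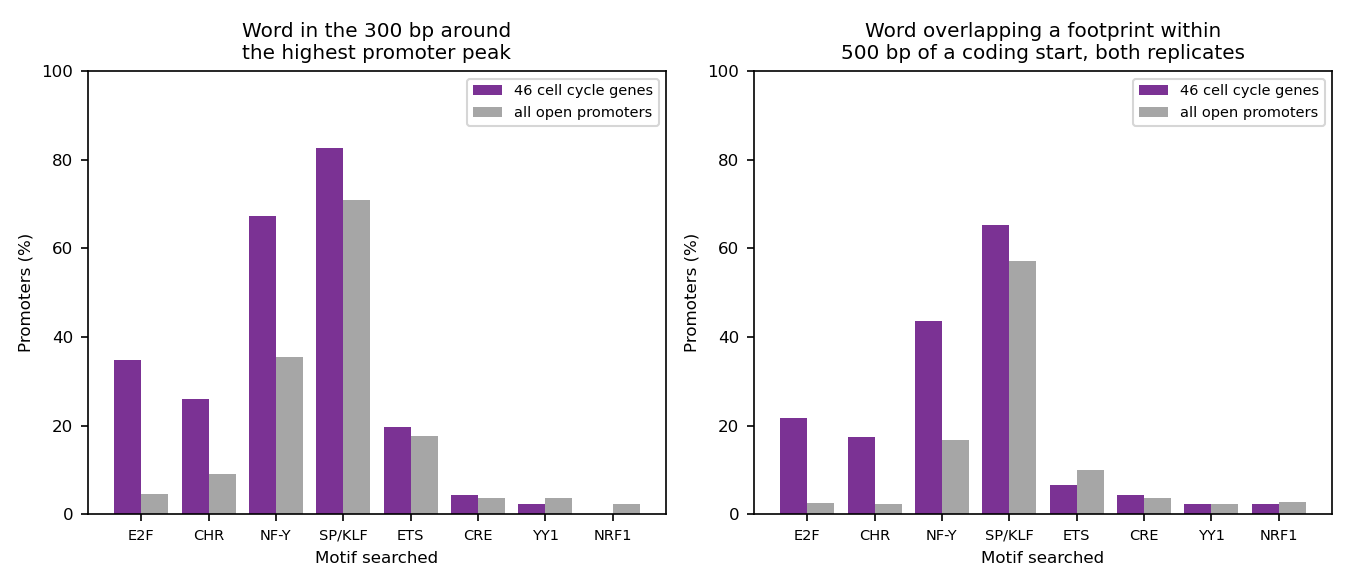
Share of promoters (percent, axes from 0 to 100) that hold each word in the 300 bp around the highest peak (left), or overlapped by a footprint within 500 bp of a coding start in both replicates (right), for the 46 genes and for the 14406 open promoters. E2F, CHR and NF-Y words are the ones with the wider gaps, 34.8% against 4.50% for E2F on the left, and GGGCGG is common in both sets.

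Which words were present differed by role. E2F words lay in the 300 bp window of 8 of the 12 licensing genes and in 1 of the 6 mitotic kinases and markers, but in 0 of the 4 S-phase enzymes. CHR words lay in that of all 6 mitotic kinases and markers and of 2 of the 12 licensing genes. CCAAT lay in that of all 6 mitotic kinases and markers, all 4 genes of the A and B cyclins with Cdk1, and 8 of the 12 licensing genes. None of the 5 genes of the D cyclins and partners held an E2F or a CHR word there. Over all open promoters the shares were 4.50% for E2F and 8.98% for CHR words. A count of 0 among 4 or 5 genes is thus near the background.

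Over the whole promoter, the 500 bp on either side of the coding starts, an E2F word was overlapped by a footprint in both replicates in 10 members (21.7%), against 2.43% of open promoters. They were Mcm3, Mcm4, Mcm5, Mcm7, Orc1, Rrm2, E2f1, E2f3, E2f8 and Rbl1. In Mcm3, Mcm5, E2f3 and E2f8 the word lay wholly inside a footprint in both, 4 members or 8.70%, against 0.902%. The joined footprints of the 3 besides Mcm5 are shown because they carry the strictest form of the match, in the gene's direction, with the E2F word in capitals (Mcm3 chr1:20820262-20820284, E2f3 chr13:29986062-29986083, E2f8 chr7:48881194-48881221, all - strand).
Mcm3 footprint: cttgggaagtTTTGGCGCcaagg
E2f3 footprint: gaaaagccgGCGGGAAAtctga
E2f8 footprint: cccgctttccGCGCCAAAtttttaaatc
The first bases of these words lay at 38, -11 and -170 from the coding start. Mcm3 holds a second E2F word at 19, which was wholly inside a footprint in replicate 1 and cut by its edge in replicate 2. Rrm2 and Mcm7 were the reverse, with the word wholly inside a footprint in replicate 2 and only touched by it in replicate 1. E2f1, whose gene is a textbook target of its own protein, had its word TTTGGCGC at 17, at the edge of footprints of 9 and 13 bases.

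A CHR word was overlapped by a footprint in both replicates in 8 members (17.4%), against 2.31% of open promoters. Of these 8, Aurkb, Bub1, Mki67 and Plk1 are mitotic kinases and markers and Ccnb2 and Cdk1 belong with the A and B cyclins, with Mcm7 and E2f3 as the others. The word lay wholly inside in both replicates in Aurkb, Bub1, Ccnb2 and Mcm7, 8.70% of members against 0.805% of open promoters. Those 4 and Mki67 are printed with the CHR word in capitals as examples; the word is TTCGAA in Aurkb, Bub1 and Mcm7 and TTTGAA in Ccnb2 and Mki67 (Aurkb chr11:69045635-69045664, + strand; the others on the - strand, Bub1 chr2:127831830-127831859, Ccnb2 chr9:70421535-70421565, Mcm7 chr5:138172046-138172068, Mki67 chr7:135716480-135716510).
Aurkb footprint: ctagagcgggagaTTCGAAagcgtccgggt
Bub1 footprint: ggctgcgcggggaaTTCGAAtcgccggcgg
Ccnb2 footprint: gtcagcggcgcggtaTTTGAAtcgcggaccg
Mcm7 footprint: gcgagcattaatTTCGAAccgcg
Mki67 footprint: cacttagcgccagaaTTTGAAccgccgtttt
In Aurkb, Bub1 and Ccnb2 the word lay at 1, 20 and -3 from the coding start, and in Mki67 it lay at -134. In Mcm7 it lay at -238 from the nearest of 7 coding starts, within annotated exon sequence. That stretch is part of the Mcm7 peak that also lies at a start of Ap4m1. Footprints of Aurkb measured 30 bases in each replicate and those of Ccnb2 31 and 30. In Mki67 the word was inside a footprint of 30 bases in replicate 2 and only touched by one of 13 bases in replicate 1.

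CCAAT was overlapped by a footprint in both replicates in 20 members (43.5%), against 16.8% of open promoters, and the same copy of the word in both in 19. A copy lay wholly inside in each replicate in 12 members (26.1%), against 9.95%, and the same copy in both in 10. Top2a and Cdk1 hold this word (ATTGG where reversed) upstream of the start, and their footprints are printed, with it in capitals, as examples from mitotic genes (Top2a chr11:99024232-99024267, Cdk1 chr10:69352982-69353018, both - strand).
Top2a footprint: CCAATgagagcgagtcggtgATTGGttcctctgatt
Cdk1 footprint: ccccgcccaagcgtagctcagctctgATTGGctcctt
In Top2a the word at -58 lay wholly inside footprints of 34 and 35 bases, the word at -78 reached only into their edge, and another copy lay at -98. In Cdk1 the word at -54 lay inside footprints of 35 and 36 bases, and a CHR word at -45 was touched by the same footprints.

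The other words stood near their background here too. GGGCGG was overlapped in 30 members (65.2%) against 57.2% of open promoters, the ETS word in 3 (6.52%) against 9.97%, the CRE in 2 (4.35%) against 3.71%, the YY1 word in 1 (2.17%) against 2.37% and the NRF1 palindrome in 1 (2.17%) against 2.66%.

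Footprint counts depend on how many words lie in open DNA, so the words inside promoter peaks of both replicates were also taken one by one. Of the members' 17 E2F words there, 6 (35.3%, exact 95% interval 14.2 to 61.7) touched a footprint in both replicates, against 33.3% of 612 over all open promoters. For CCAAT it was 23 of 65 (35.4%, 23.9 to 48.2) against 31.9% of 7054. For CHR words it was 8 of 18 (44.4%, 21.5 to 69.2) against 17.9% of 1092. For GGGCGG it was 58 of 101 (57.4%, 47.2 to 67.2) against 46.9% of 24971. The ETS word had a lower share than elsewhere, 2 of 7 (28.6%, 3.67 to 71.0) against 40.8% of 2797. The CRE had only 2 copies there and the YY1 and NRF1 words 1 each, and all of these touched a footprint in both replicates. The interval for the 17 E2F words is too wide to show whether they were footprinted more or less often than elsewhere. Words of one promoter are not independent, and the intervals cover counting error only. Whether any word was footprinted more often in members than elsewhere was therefore not tested.

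Away from coding starts, a site was a peak present in both replicates and more than 500 bp from every coding start. The loci held 139 of them, in 34 of 46 members (73.9%), against 82.6% of open promoters with at least 1. The median was 1 per member and 2 per open promoter, and the members' loci were shorter, with a median of 35362 bp against 45299 bp. Ccnd1 and Ccnd3 had most, 16 each, then Cdc6 with 14, several of them within its neighbour Rara, and E2f2 with 12. Mcm3, Mcm4, Mcm7, Mcm10, Orc1, Tyms, Ccna2, Ccnb1, Ccnb2, Bub1, Top2a and Cdkn2a had 0, which is 5 of the 12 licensing genes and 3 of the 4 genes of the A and B cyclins with Cdk1.

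In 6 members, 13.0%, a site was higher than the gene's own promoter by the mean of the replicates, a smaller share than the 22.9% of open promoters. They were Ccnd1, Ccnd2, Ccnd3, Cdkn1a, E2f2 and Aurkb, so all D cyclins were among them. The highest was in an intron of Ccnd3 (chr17:47511241-47511420), at 10.6 in replicate 1 and 14.5 in replicate 2, against 9.47 and 13.0 at its promoter. The margin there was smaller than the spread between the libraries. An intron of Cdkn1a (chr17:29095541-29095700), 1851 bp downstream of the start at its promoter peak, had 9.32 and 11.4 against 2.98 and 4.71 at the promoter. The first coding start of Cdkn1a, 2790 bp upstream of that start, had no peak in either replicate. An intron of Ccnd1, 2209 bp into the gene (chr7:144937581-144937740), had 7.07 and 6.29 against 2.21 and 2.27, and a noncoding retained-intron transcript of Ccnd1 starts within 500 bp of it. In Cdkn1a and Ccnd1 both values of the site exceeded both of the promoter.

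**Figure D3:**
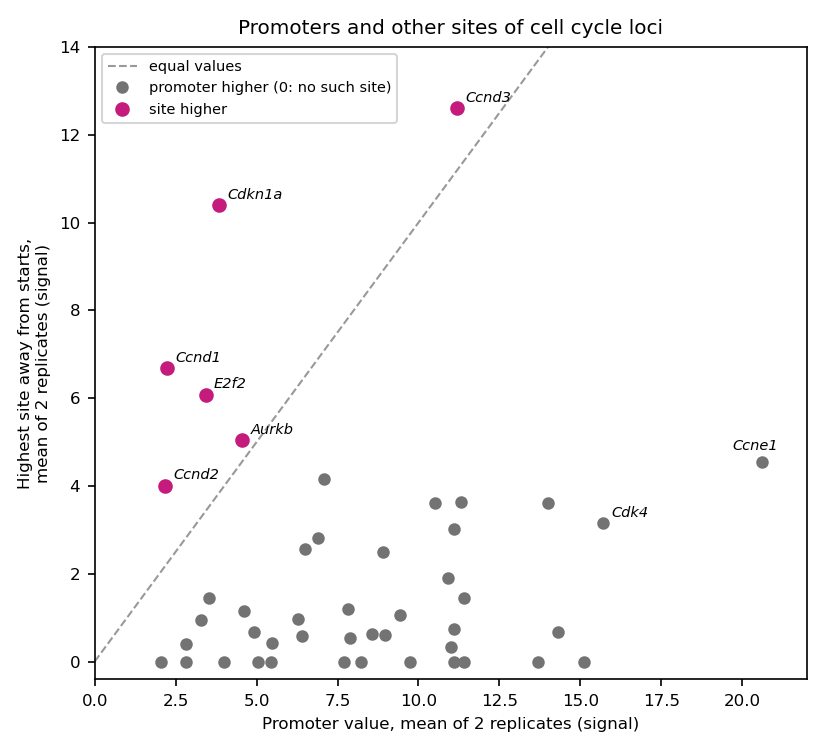
Highest site away from coding starts in each gene's locus against its promoter value, both as the mean of the 2 replicates (signal, linear axes), with 0 on the vertical axis where a gene had no such site. The 6 genes above the dashed line of equal values are Ccnd3, Cdkn1a, Ccnd1, E2f2, Aurkb and Ccnd2.

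The reference sequence of these 3 sites is shown on the gene's strand (Ccnd3 and Cdkn1a +, Ccnd1 -, GRCm38.p6), with capitals for bases inside footprints of both replicates. None of it is exonic.
Ccnd3 intron: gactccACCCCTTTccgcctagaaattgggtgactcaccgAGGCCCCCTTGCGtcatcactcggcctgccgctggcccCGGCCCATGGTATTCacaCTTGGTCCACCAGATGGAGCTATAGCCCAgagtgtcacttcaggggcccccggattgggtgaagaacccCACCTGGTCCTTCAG
Cdkn1a intron: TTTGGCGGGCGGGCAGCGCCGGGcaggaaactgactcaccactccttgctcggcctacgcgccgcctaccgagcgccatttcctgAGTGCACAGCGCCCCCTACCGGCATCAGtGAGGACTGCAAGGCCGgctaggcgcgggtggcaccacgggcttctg
Ccnd1 intron: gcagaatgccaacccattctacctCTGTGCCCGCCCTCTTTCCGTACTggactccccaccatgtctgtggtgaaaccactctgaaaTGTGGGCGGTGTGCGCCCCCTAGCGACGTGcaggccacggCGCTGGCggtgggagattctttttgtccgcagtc
The E-box CAGCTG, a word of MyoD and its relatives, is in none of the 3. It was in 24.7% of the 72459 sites away from starts in the genome, whose median length was 178 bp. Other E-box words were not searched, and the Ccnd3 site holds CACCTG in capitals near its end. After these sequences were seen, CGCCCCCT, a part of the motif of the insulator protein CTCF, was searched as well. The word was picked after seeing these sequences, so its presence in them cannot be weighed against other sites. No other form of the motif was searched. CGCCCCCT is in the Cdkn1a and Ccnd1 sites, in capitals in both, and in 3.47% of the 72459 sites. Of its 2560 copies in those sites, 76.3% were touched by a footprint in both replicates.

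The other 3 genes had more modest sites. E2f2 had 6.38 and 5.77 at a site 8704 bp upstream of its start (chr4:136163601-136163780) and 6.47 and 4.20 in an intron 7756 bp into the gene, against 3.20 and 3.65 at its promoter. Aurkb had 5.04 and 5.07 at -3852 bp (chr11:69041701-69041900), against 4.40 and 4.71. Its margin was small, and its locus held 9 such sites in all. Ccnd2 had 3.79 and 4.22 in an exon 3127 bp downstream of the start at its promoter peak (chr6:127147781-127147980), against 1.79 and 2.55. Ccnd1 had a further site 1801 bp upstream, at 3.68 and 6.63, which exceeded its promoter in both replicates too. Beyond Cdkn1b, a site at 8259 bp with 2.72 and 5.57 (chr6:134928401-134928920) lay within 500 bp of the start of the noncoding RNA gene Lockd.

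**Figure D4:**
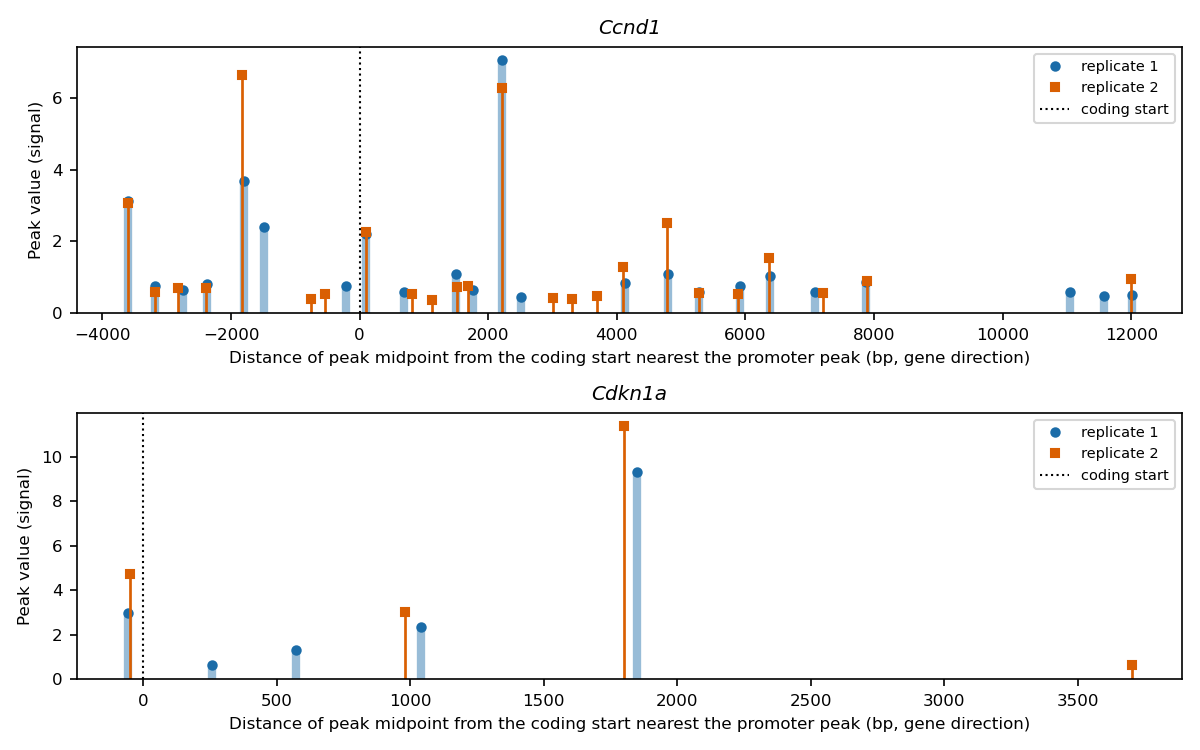
Every peak in the loci of Ccnd1 (top) and Cdkn1a (bottom), by the distance of its midpoint from a coding start and by its value (signal, axes from 0). Distances are in bp, in the gene's direction, from the coding start nearest the promoter peak. Wide pale bars and circles are replicate 1, and narrow bars and squares are replicate 2. The intronic peak at 2209 bp in Ccnd1 (7.07 and 6.29) and that at 1851 bp in Cdkn1a (9.32 and 11.4) stand above the peak at the start.

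Locus cover, the percentage of bases at a false discovery rate under 0.05, had a median of 5.18 over the members, 4.91 in replicate 1 and 5.20 in replicate 2. It was 4.0 over open promoters' genes and 2.89 over all coding genes. Cover fell with locus length, with a Spearman rho of -0.625 over the 46 members and -0.632 over open promoters. It was nearly unrelated to promoter value (rho 0.177 over the 46 members). Genes of these correlations share the same libraries. Ccnd1 had the highest cover at 23.7% in replicate 1 and 29.2% in replicate 2, then Aurkb at 21.2% and 24.8% and Cdkn2c at 16.9% and 16.8%. The lowest were Mcm10 at 1.26% and 2.21%, Top2a at 1.67% and 1.25% and Ccnb2 at 1.49% and 1.96%. Ccnd1 thus combined a promoter at percentile 24.9 with the most open locus of the 46.

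Replicate 2 over replicate 1 gave a median ratio of 1.43 over the members' promoters and of 1.36 over all open promoters, where the 10th to 90th percentiles were 0.867 and 1.93. The ratio exceeded 1 in 44 of 46 members (95.7%) and in 82.0% of open promoters. It was highest for Top2a at 2.40 (95% counting interval 2.14 to 2.70), Mcm4 at 2.34 (2.19 to 2.50) and Cdc6 at 2.20 (2.05 to 2.36). It was lowest for Cdkn2a at 0.962 (0.830 to 1.12), Bub1 at 0.973 (0.913 to 1.04) and Ccnd1 at 1.03 (0.890 to 1.18). The intervals cover counting error only, take each step of the scale as 1 tag, and do not show how far biological replicates vary. Ranks were nonetheless kept, with a Spearman rho between replicates of 0.919 over the 46 members and 0.956 over open promoters.

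**Figure D5:**
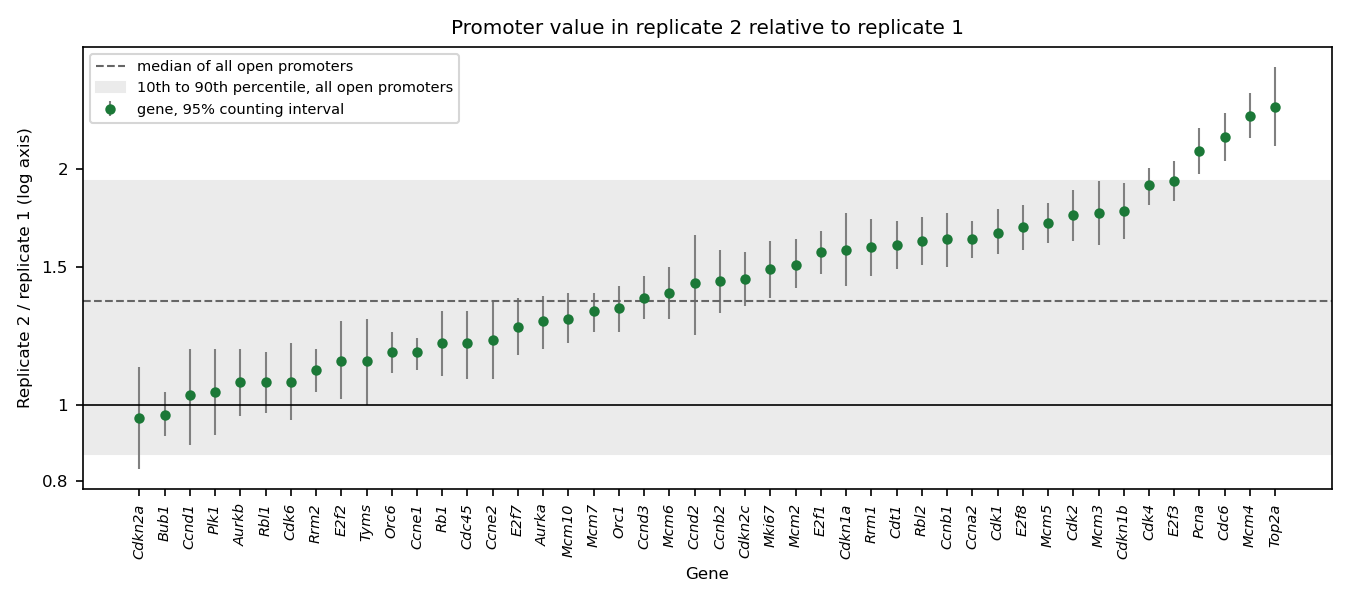
Promoter value in replicate 2 over that in replicate 1 for each of the 46 genes (log axis), with 95% counting intervals, the open-promoter median of 1.36 (dashed) and the 10th to 90th percentiles of open promoters (grey band, 0.867 to 1.93). Top2a, Mcm4, Cdc6 and Pcna lie above the band and no gene lies below it.

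A list of 100 other cell cycle and replication genes gave a similar picture. Of these, 99 were open in both replicates, against 66.0% of all coding genes and 97.0% of CpG-rich ones. In both replicates 74 lay above the open-promoter medians, against 45.8% of open promoters and 57.0% of CpG-rich open ones. The median value was 8.60 over the open genes of the list. The highest were Fzr1, an activator of the anaphase-promoting complex, at 20.9 and 32.6, Orc4, an origin recognition subunit, at 14.5 and 24.0, and Cdkn2d, an inhibitor of Cdk4 and Cdk6, at 11.3 and 25.7. The lowest open ones were Fbxw7, which marks cyclin E for destruction, at 1.21 and 1.02, Ccna1, the germline cyclin A, at 1.51 and 2.04, and Tk1, thymidine kinase, at 1.55 and 2.81. Ccnb3, a cyclin of meiosis, had 0.185 in replicate 1 and no promoter peak in replicate 2.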

How the data were processed

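Members and lists were chosen with earlier results of these data known. Peaks, footprints and false discovery rates come from 1 library each, without pooling, on mm10, per the notes deposited beside them. The aligner and the callers were not given in the sources used here. Peak values as deposited by the authors are a signal scaled to depth, in whole multiples of a step (100% of values, within 0.05 of a step). How wide a window each peak's tags came from is unknown. The deposited per-position p-value type is an FDR, listed only under 0.05. Footprints carry a constant deposited value of 0.01, so positions alone were used. Whether CAST reads mapped less often was not analysed here.

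Promoter values, locus cover and words were computed for all 21829 genes with Python 3.11.15, pandas 2.3.3, numpy 2.4.6 and scipy 1.17.1, on GENCODE M21 with at least 1 bp of overlap. Listed regions were joined over gaps up to 150 bp. Sequences are RefSeq GRCm38.p6. Named genes are all members, the 3 highest and 3 lowest of the other list, and neighbours sharing a peak. Scripts were tested on simulated data. A further marker list is not reported here.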

Additional observations from a re-analysis of the deposited data

How the results depend on the processing

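With other promoter windows (250 and 1000 bp), the stricter peaks, peaks above the library median or either replicate alone, all 46 members stayed open, and with the gene record's start alone 45 did, without Cdkn1a. The median promoter value of 7.85 became 10.1 as a sum of peaks, 6.35 for the peak nearest a start and 6.53 to 9.17 with 1 replicate left out. The median locus cover of 5.18 became 4.93 with no flank, 3.88 with 50 kb, 4.11 for bases listed in both replicates, 3.66 at an FDR under 0.001, and 4.91 to 5.20 with 1 replicate left out. Divided by the open-promoter median, the replicate ratio of 1.43 became 1.06. The count of 4 members with an E2F word wholly inside a footprint in both became 8 (2.09% of open promoters) with footprints widened by 5 bp, 10 (2.43%) with any overlap, and 4 to 6 with 1 replicate left out. No paired analysis was possible because there was a single group. Depth per library is unknown, and no limit from it was computed.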
